A study of Mus musculus with 2 samples.

Results

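The 10 genes described here encode MHC class I chains, both classical and non-classical, parts of the machinery that loads them with peptide, and the inducible subunits of the proteasome: H2-K1, H2-D1, H2-Q7, H2-T23, B2m, Tap1, Tapbp, Psmb8, Psmb9 and Psmb10. They were taken by name from the 11691 genes of a single-cell table, and all 10 had a row. The cells were CD11b+ Ly6G- and CD11b+ Ly6G+ leukocytes sorted from the blood of C57BL/6 mice, collected 24 h after a transient block of the proximal middle cerebral artery. One library came from aged mice of 18 to 24 months and the other from young mice of 2 to 4 months, and both groups had the stroke, so no uninjured animal enters any comparison. No source used here gives the number of mice behind each library or the ratio in which the 2 sorted fractions were mixed.

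MHC class I molecules show peptides from inside the cell to CD8+ T cells, and receptors on NK cells read their presence. A heavy chain (H2-K1 or H2-D1 in this strain) pairs with beta-2-microglobulin, the product of B2m, and the peptide is cut by the proteasome, carried into the endoplasmic reticulum by the Tap1 and Tap2 transporter and loaded with the help of tapasin, the product of Tapbp. In cells exposed to interferon, and constitutively in many leukocytes, the catalytic subunits Psmb8, Psmb9 and Psmb10 take the places of Psmb5, Psmb6 and Psmb7, which gives the immunoproteasome.

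Of the 10 genes, 8 lie on chromosome 17, in or beside the MHC. On GRCm38 (GENCODE M21), H2-K1 lies at chr17:33996017-34000347 and H2-D1 at chr17:35262730-35267499. H2-Q7 lies at chr17:35439155-35443773 and H2-T23 at chr17:36029773-36032855, both in the non-classical part of the complex. Psmb9 (chr17:34181987-34187764), Tap1 (chr17:34187553-34197225) and Psmb8 (chr17:34197721-34201454) lie in the class II part, and Tapbp (chr17:33915899-33929292) lies on the other side of H2-K1 from them. B2m lies at chr2:122147686-122153083 and Psmb10 at chr8:105935735-105938444. The starts of Psmb9 and Tap1 in RefSeq point away from each other and stand 225 bases apart.

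Upstream stretches are shown for B2m and for the heavy chains H2-K1, H2-D1 and H2-Q7, which pair with its product. The levels of these genes below differ in order between cell types. All stretches were placed on a match to the NF-kappaB consensus. H2-T23, the other heavy chain, has no such match in its promoter and is not shown. Each stretch is from RefSeq on GRCm38.p6, 5′ to 3′ on the strand of its gene, and capitals mark the NF-kappaB consensus, a pair of GAAA repeats with 2 bases between them, TGACG, and CCAAT or its reverse complement.
H2-K1, chr17:34000359-34000468, minus strand: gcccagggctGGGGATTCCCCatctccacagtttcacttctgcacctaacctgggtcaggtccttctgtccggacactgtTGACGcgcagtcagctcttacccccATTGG
H2-D1, chr17:35262918-35262947, plus strand: gggctGGGGATTCCCCatctcctcagtttc
H2-Q7, chr17:35439012-35439119, plus strand: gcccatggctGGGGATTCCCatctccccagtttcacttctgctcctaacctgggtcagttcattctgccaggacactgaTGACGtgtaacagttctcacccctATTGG
B2m, chr2:122147538-122147638, plus strand: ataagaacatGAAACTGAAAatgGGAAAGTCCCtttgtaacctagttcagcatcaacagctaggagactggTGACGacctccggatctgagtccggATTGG
Over the 100 bases from the NF-kappaB match to the ATTGG box, most of them not printed for H2-D1, H2-K1 and H2-D1 had 89 bases in common. The NF-kappaB consensus stood in the promoters of 4 of the 10 genes, the 4 shown, and in 4.51% of the 32851 promoters of 300 bases in the same table, with both strands read. CCAAT was found for 8 of the 10 genes and in 37.4% of all promoters, and TGACG for 6 of the 10 and in 20.8%. The GAAA pair stood in the promoters of B2m and H2-T23 and in 3.44% of all promoters. A match describes letters and not a bound site.

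The table held 3944 aged and 1849 young cells, with 13752454 and 6440664 UMIs in all. After removal of likely doublets 3820 aged and 1822 young cells were left, which the authors' labels divide into neutrophils (2628 aged and 1133 young), monocytes (932 and 540), conventional dendritic cells (cDC, 104 and 52), NK cells (58 and 70), follicular B cells (41 and 14), mast cells (42 and 0) and cells labelled Eryth-Neutro (15 and 13). Levels are CPM, a gene's share of all UMIs of a population scaled up as usual, from 3′ tags not divided by gene length, so a gene is compared across cells and not with another gene. The 9 neutrophil markers summed to 422027 CPM in aged and 334098 CPM in young neutrophils, against 34154.5 and 23991 CPM in monocytes. The 9 monocyte markers summed to 7037 CPM in aged and 6718 CPM in young monocytes, against 616 and 668 CPM in neutrophils. The same 12 cell barcodes occurred in both libraries, and the results without those 24 cells are given in the closing section. With 1 library per age there is no replicate, so no difference between ages was tested: every interval below is a 95% interval for counting error, which leaves out the spread between animals, sorts and libraries.

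Neutrophils had more H2-D1 than monocytes and cDC, and less Psmb8 and Psmb10, in both libraries, by CPM and by TMM scaling. The CPM of H2-K1, B2m and Tapbp were also lower in neutrophils than in monocytes and cDC, but with TMM scaling, which sets the bulk of the genes level between populations, all 3 turned to higher in neutrophils in both libraries. Tap1 turned likewise against monocytes and not against cDC. Psmb9 and H2-T23 turned against cDC in both libraries, and Psmb9 against monocytes in the aged one. H2-D1, a classical heavy chain, had 2157 CPM (2118 to 2196) in aged and 1962 CPM (1901 to 2024) in young neutrophils, and at least 1 UMI in 97.0% of aged and 94.8% of young neutrophils. In monocytes it had 1489 CPM in the aged and 1266 CPM in the young library. Its level in NK cells, 2682 CPM in the aged and 2773 CPM in the young library, was the highest of the 4 populations compared, and neutrophils came next in both libraries. With TMM scaling the log2 ratio of NK cells to neutrophils turned to −1.42 in the aged and −1.05 in the young library, in place of 0.31 and 0.50.

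H2-K1, the other classical heavy chain of this strain, had 153 CPM (142 to 163) in aged and 195 CPM (176 to 215) in young neutrophils. Monocytes had 336 CPM in the aged and 375 CPM in the young library, cDC 393 and 443 CPM, and NK cells 1743 and 1911 CPM. The order neutrophil, monocyte, cDC, follicular B cell, NK cell was the same in both libraries, although the intervals of cDC and monocytes overlapped in both (349 to 442 CPM in cDC and 322 to 351 CPM in monocytes of the aged library, 380 to 515 and 355 to 395 CPM in the young one).

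The share of H2-D1 among the UMIs of the 2 classical heavy chains does not depend on the scaling of a population. It was 93.4% (92.9 to 93.8) in aged and 91.0% (90.1 to 91.8) in young neutrophils. In monocytes it was 81.6% (80.9 to 82.3) in the aged and 77.2% (76.1 to 78.2) in the young library, in cDC 78.6% and 75.6%, and in NK cells 60.6% and 59.2%. Aged follicular B cells stood at 69.7% and young ones at 62.2%, and the intervals of neutrophils overlapped those of no other population compared. The H2-D1 to H2-K1 ratio was 1.40 times as high in aged as in young neutrophils (1.24 to 1.59) and 1.31 times as high in aged as in young monocytes (1.21 to 1.42). In cDC the same quotient was 1.19 (0.95 to 1.48) and in NK cells 1.06 (0.845 to 1.33), both with intervals that include 1. H2-K1 and H2-D1 are alike in sequence, and no source used here says how reads that match both were counted.

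**Figure D1:**
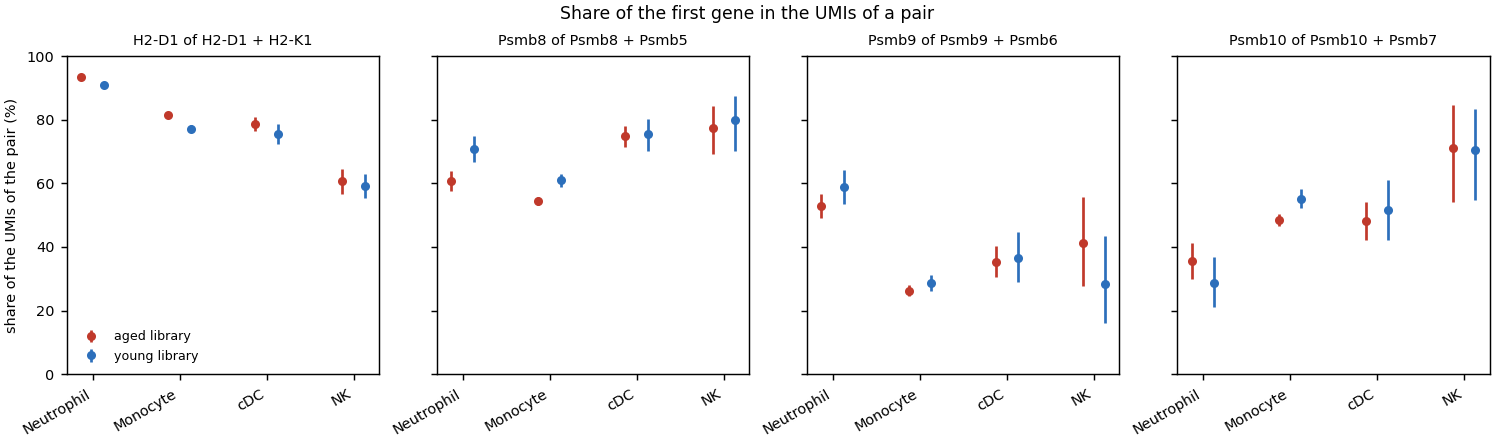
Share (%) of the first gene among the UMIs of a pair, in the aged (red) and young (blue) library of each population, with Clopper-Pearson intervals. H2-D1 takes 93.4% of its pair in aged and 91.0% in young neutrophils, while Psmb10 takes 35.5% and 28.6% there, the lowest values of their panels for Psmb10 and the highest for H2-D1.

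B2m, the light chain of all class I molecules, had 1157 CPM (1128 to 1185) in aged and 1473 CPM (1421 to 1527) in young neutrophils. Its level in monocytes was 2054 CPM in the aged and 1864 CPM in the young library, in cDC 2283 and 1982 CPM, and in NK cells 3514 and 2566 CPM. Neutrophils had the lowest CPM of the 4 populations in both libraries. With TMM scaling the log2 ratio of monocytes to neutrophils was −0.49 in the aged and −0.66 in the young library, in place of 0.83 and 0.34.

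H2-Q7, a heavy chain of the Qa-2 family, was highest in NK cells, with 567 CPM (449 to 706) in the aged and 454 CPM (353 to 576) in the young library. Follicular B cells came next, with 128 CPM (89.3 to 178) in the aged and 104 CPM (42.0 to 215) in the young library, from 35 and 7 UMIs. Of the NK cells, 69.0% in the aged and 58.6% in the young library had a UMI of it. Aged neutrophils had 13 UMIs of it and young ones 5, or 2.37 and 2.47 CPM. A UMI of H2-Q7 stood in 0.495% of aged and 0.441% of young neutrophils. A UMI of any of 8 NK cell markers, a wider set, stood in 2.55% and 7.68%. Whether the neutrophil value is background was not tested, and with so few UMIs no fold against it is given. Median depth was 1900 UMIs in aged and 1629 in young neutrophils, and 2314 and 2000.5 in NK cells. H2-Q7 has near-identical neighbours, so reads that it shares with them make its counts uncertain.

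H2-T23, which encodes Qa-1, the ligand of the NK receptor CD94/NKG2A, varied less. It had 56.9 CPM in aged and 73.0 CPM in young neutrophils, 47.6 and 57.1 CPM in monocytes, and 106 and 115 CPM in cDC. Its level in NK cells, 115 CPM in the aged and 66.8 CPM in the young library, rests on 16 and 10 UMIs.

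Tap1, a chain of the peptide transporter, had 15.7 CPM (12.6 to 19.4) in aged and 34.0 CPM (26.5 to 43.1) in young neutrophils. Monocytes had 38.6 CPM in the aged and 50.2 CPM in the young library, and cDC had 106 and 113 CPM. The cDC level was 6.73 times that of neutrophils in the aged library (4.88 to 9.27) and 3.31 times in the young one (2.22 to 4.91). Tapbp had 63.3 CPM in aged and 76.5 CPM in young neutrophils, 87.6 and 99.6 CPM in monocytes, and 147 and 169 CPM in cDC.

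The 3 immunoproteasome subunits did not follow one pattern across cell types. Psmb8, the beta5i subunit, had 107 CPM (98.6 to 116) in aged and 183 CPM (164 to 202) in young neutrophils, 436 and 393 CPM in monocytes, 761 and 579 CPM in cDC, and 717 and 501 CPM in NK cells. Psmb9, the beta1i subunit, had 67.9 CPM in aged and 102 CPM in young neutrophils, against 120 and 101 CPM in monocytes. By CPM the 2 cell types thus did not differ beyond counting error in the young library (ratio of monocytes to neutrophils 0.994, 0.835 to 1.18). This depends on the scaling: with TMM, Psmb9 was higher in neutrophils than in monocytes and cDC in both libraries. Psmb10, the beta2i subunit, stood apart, with 19.0 CPM (15.5 to 22.99) in aged and 19.7 CPM (14.1 to 26.9) in young neutrophils, against 195 and 171 CPM in monocytes. Monocytes had 10.3 times the neutrophil level of Psmb10 in the aged library (8.40 to 12.7) and 8.68 times in the young one (6.30 to 12.3), and NK cells 10.2 and 10.5 times.

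Set against their constitutive partners, the subunits again differed in pattern, and the order of cell types by CPM did not hold for all of them. Psmb9 took 52.8% (49.1 to 56.6) of the UMIs of Psmb9 and Psmb6 in aged and 58.9% (53.5 to 64.1) in young neutrophils, against 26.3% and 28.6% in monocytes and 35.3% and 36.5% in cDC. Psmb10 took 35.5% (30.02 to 41.3) of those of Psmb10 and Psmb7 in aged and 28.6% (21.3 to 36.8) in young neutrophils, against 48.5% and 55.2% in monocytes and 71.1% and 70.5% in NK cells. Relative to its partner, Psmb9 was thus higher and Psmb10 lower in neutrophils than in monocytes, in both libraries. Psmb8 took 60.8% of the UMIs of Psmb8 and Psmb5 in aged and 70.9% in young neutrophils, 54.4% and 60.9% in monocytes, and 74.8% and 75.6% in cDC. Its share was thus lower in monocytes than in neutrophils of the same library, although its CPM was higher there. This was so for Psmb9 in the aged library too.

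**Figure D2:**
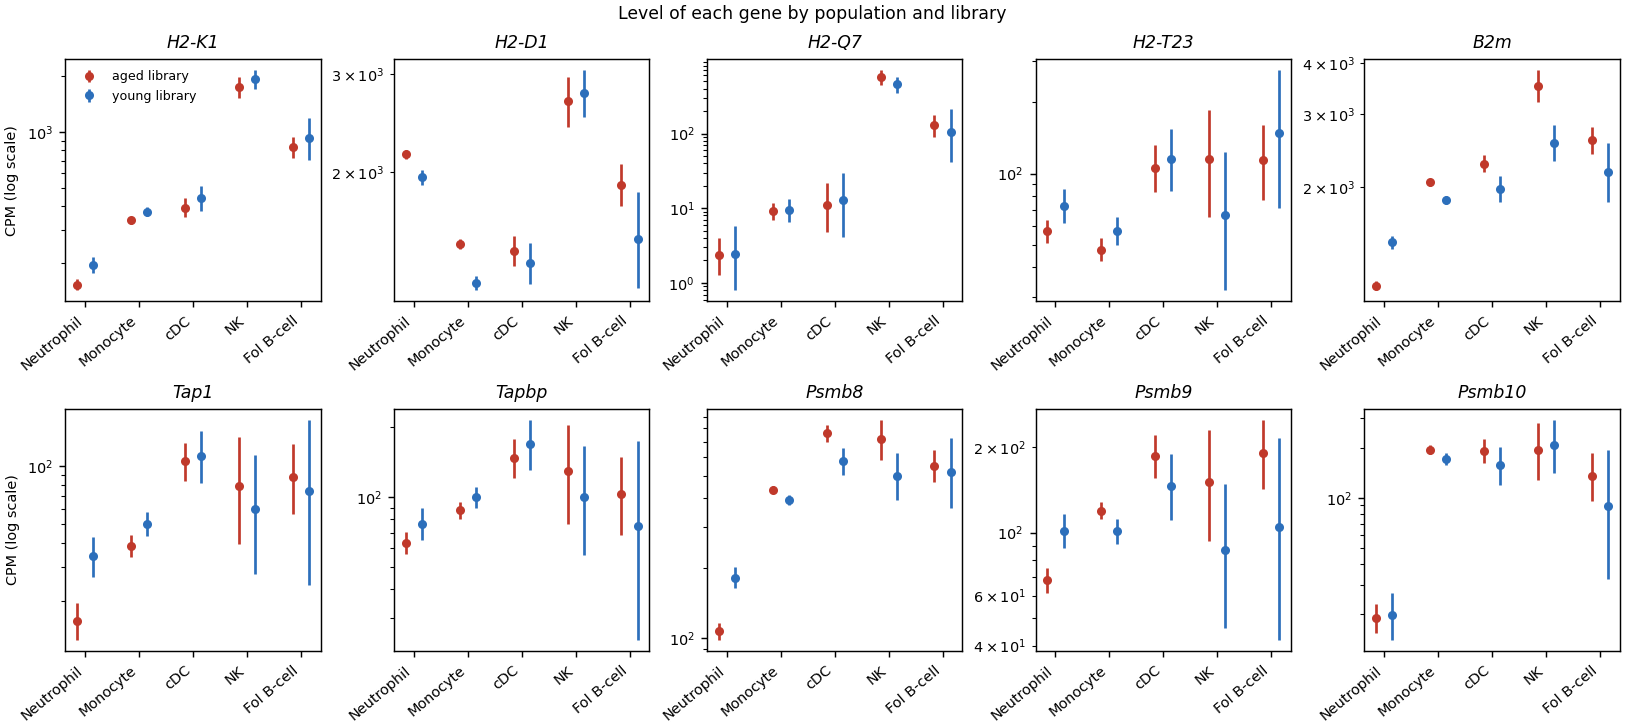
Level of each gene in CPM (log scale, with a scale of its own in each panel) by population, in the aged (red) and young (blue) library; bars are exact Poisson intervals. H2-D1 is the gene for which both neutrophil points lie above those of monocytes and cDC by more than their intervals, and Psmb10 is near 19.0 and 19.7 CPM in neutrophils and at or above 89.5 CPM in the other populations shown.

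Across all 10 genes, monocytes in the aged library had a level at least 1.5-fold higher than neutrophils for 7 of 10 genes and lower for 0, where 67.8% of all 7447 genes with at least 50 UMIs were higher and 12.1% lower. In the young library 3 of the 9 genes measured were higher and 1, H2-D1, was lower, against 61.5% and 13.7% of 6120 genes. The 7 of 10 is near the share of all genes. In neutrophils 3 genes (S100a8, S100a9 and Retnlg) took 41.7% of all UMIs in the aged and 32.9% in the young library, against 3.35% and 2.33% in monocytes. With TMM scaling the median log2 ratio of monocytes to neutrophils over the members was −0.34 in the aged and −0.61 in the young library, in place of 0.98 and 0.38, while that of all genes was 0.05 and 0.06, in place of 1.37 and 1.05. H2-D1 had a monocyte to neutrophil ratio of 0.690 (0.672 to 0.709) in the aged and 0.646 (0.619 to 0.674) in the young library, at the percentile 12.8 and 13.1 of all genes. For cDC, 8 of 9 genes in the aged and 6 of 9 in the young library were at least 1.5-fold above neutrophils, against 55.9% and 45.7% of all genes. For NK cells these were 9 of 10 and 6 of 10, against 52.5% and 44.6%. H2-Q7, with 13 aged and 5 young UMIs in neutrophils, is counted among the higher genes in NK cells of both libraries and in monocytes of the aged one. By CPM no member was 1.5-fold lower in cDC, where 19.3% of all genes were lower in the aged and 25.9% in the young library, or in NK cells, where 23.3% and 29.3% were. With TMM scaling, and at any fold, 6 of the 9 members measured were lower in cDC than in neutrophils and 3 higher, in each library. In NK cells 5 of 10 were then lower in the aged and 7 of 10 in the young library, and the rest higher. The share of all genes is not given with TMM scaling.

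Mast cells were seen in the aged library alone. They had 2164 CPM of H2-D1, 669 CPM of H2-K1 and 2049 CPM of B2m, from 207, 64 and 196 UMIs. The cells labelled Eryth-Neutro had 757 CPM of H2-D1 in the aged and 141 CPM in the young library, and 336 and 253 CPM of B2m. These values rest on 45 and 10 UMIs of H2-D1 and on 20 and 18 UMIs of B2m. The 5 erythroid markers took 65.5% of the UMIs of these cells in the aged and 88.5% in the young library. Scaled to the UMIs outside those markers, a choice made after the values were seen, H2-D1 had 2196 and 1219.5 CPM there, and B2m 976 and 2195 CPM. Tap1, Tapbp and Psmb10 had 0 UMIs in these 15 aged and 13 young cells.

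By a fixed rule, the genes whose pattern was most like those of the members were named from the log2 levels in 8 points, the 4 populations in each library, among 5732 genes. For the mean of H2-K1, H2-D1 and B2m these were Ubr2 (Pearson r = 0.992), Bcl2, Ms4a4b, Nelfb and Dusp5, and for the mean of the 3 immunoproteasome subunits Keap1 (r = 0.993), Eef1d, Cct7, Hnrnpf and Arl6ip5. The 4 populations of a library share its cells' depth and processing, so the points are not independent.

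Between the ages, the pathway of neutrophils did not move as a block. Tap1, Psmb8 and Psmb9 were lower in aged than in young neutrophils, and H2-D1 was slightly higher. Tap1 had a ratio of aged to young of 0.461 (0.332 to 0.642) and Psmb8 one of 0.587 (0.514 to 0.670), and these 2 of the 9 genes measured were at least 1.5-fold lower. Of the 4745 genes that reached 50 UMIs, 20.3% were lower by that fold in aged neutrophils and 3.79% higher, so 2 of 9 is close to the share of all genes. None of the 9 was at least 1.5-fold higher.

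Psmb9 lay just inside that fold, at 0.668 (0.562 to 0.796). H2-K1 had a ratio of 0.783 (0.693 to 0.884), B2m 0.785 (0.752 to 0.820) and H2-T23 0.779 (0.639 to 0.954). For Tapbp (0.828, 0.683 to 1.01) and Psmb10 (0.961, 0.662 to 1.42) the interval included 1. H2-D1 alone had an interval above 1, at 1.10 (1.06 to 1.14). The median log2 ratio over the 9 genes was −0.35 and that of all genes −0.24. TMM scaling moved the median of all genes to 0.07 and that of the members to −0.042. Tap1 then stood at −0.81 on the log2 scale, Psmb8 at −0.46, H2-D1 at 0.45 and B2m at −0.037.

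The share of cells with a UMI, taken after each cell was thinned to 500 UMIs, differed in the same direction. Psmb8 was found in 5.48% of aged and 10.1% of young neutrophils (19.4% and 26.7% before thinning), and Tap1 in 0.761% and 2.38% (3.23% and 5.74%). After thinning, 90.1% of aged and 84.4% of young neutrophils had no UMI of any immunoproteasome subunit, and 19.9% and 18.2% none of a class I chain.

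Ratios within the pathway need no scaling. The Psmb8 to Psmb5 ratio was 0.638 times as high in aged as in young neutrophils (0.504 to 0.807), and the Tap1 to Tap2 ratio 0.589 times (0.376 to 0.924). The Psmb9 to Psmb6 ratio was 0.783 times (0.599 to 1.02) and that of Psmb10 to Psmb7 1.38 times (0.871 to 2.19), both with intervals that include 1.

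Other values moved with age in the same neutrophils. The 8 NK cell markers summed to 12.8 CPM in aged (Eomes and Prf1 at 0) and 45.4 CPM in young neutrophils, and the 5 T cell markers in the table to 13.3 and 21.7 CPM, with Cd3e at 0 in both. Erythroid markers summed to 271 CPM in aged and 999 CPM in young neutrophils, 8 interferon-responding neutrophil markers to 255 CPM (Mx1 at 0) and 332 CPM, and the 8 early neutrophil markers to 11462 and 8696 CPM. In the 2463 aged and 1005 young neutrophils with no UMI of an NK, B or T cell marker, the log2 ratio was −1.09 for Tap1, −0.75 for Psmb8 and −0.61 for Psmb9, close to −1.12, −0.77 and −0.58 in all neutrophils. The part of the interferon and erythroid values in these ratios was not tested.

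**Figure D3:**
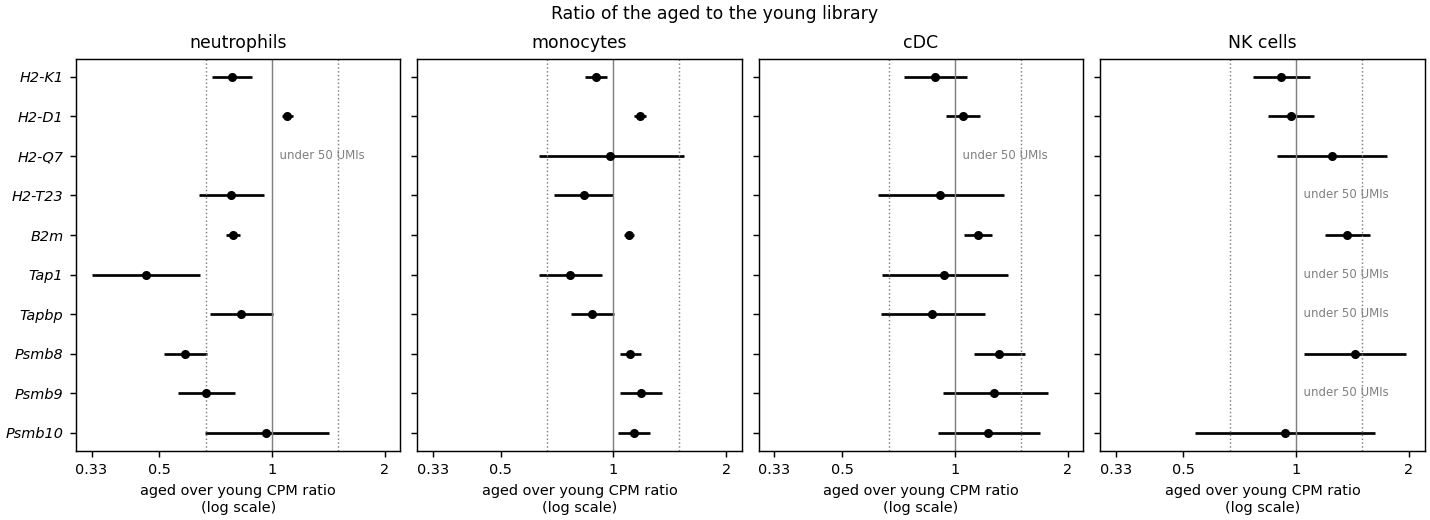
Ratio of the aged to the young library (log scale) for each gene in 4 populations, with exact conditional binomial intervals; dotted lines mark 1.5-fold, and genes with under 50 UMIs over both libraries have no point. Tap1 (0.461) and Psmb8 (0.587) lie left of the lower dotted line in neutrophils, and no point lies beyond a dotted line in the other populations.

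Neutrophils were then divided into 3 clusters made without the genes of the pathway. The cluster led by Gm2a, Prr5l and Il1b held 685 aged and 937 young cells, that led by Gm5483 and the stefin A genes Stfa1, Stfa2 and Stfa3 held 698 and 63, and an early neutrophil-like cluster led by Camp, Ngp and Ltf held 1245 and 133. Clustering was joint and without integration, so cluster sizes are not compared. B2m was highest in the Gm2a cluster, with 1569 CPM in aged and 1660 CPM in young cells, against 1091 and 819 CPM in the stefin A cluster and 985 and 699 CPM in the Camp cluster. Within the clusters, the aged to young ratio of B2m was 0.945 (0.892 to 1.00) in the Gm2a cluster, 1.33 (1.10 to 1.63) in the stefin A cluster and 1.41 (1.22 to 1.64) in the Camp cluster. The lower B2m of aged neutrophils as a whole thus turned to a higher one in 2 of the 3 clusters, and with the 3 clusters weighted alike its log2 ratio was 0.28 in place of −0.35.

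H2-D1 was higher in aged cells in all 3 clusters, at 1.20 (1.14 to 1.26), 1.25 (1.09 to 1.43) and 1.32 (1.20 to 1.46). Psmb8 was lower in all 3, at 0.695 (0.575 to 0.839) in the Gm2a cluster, 0.674 (0.422 to 1.14) in the stefin A cluster and 0.676 (0.483 to 0.968) in the Camp cluster. Tap1 had a ratio of 0.381 (0.215 to 0.648) in the Gm2a cluster, from 19 aged and 60 young UMIs. In the stefin A cluster the Tap1 ratio was 1.12 (0.280 to 9.79) and in the Camp cluster 0.629 (0.280 to 1.66), from 2 and 7 young UMIs. In the Gm2a, stefin A and Camp clusters, H2-K1 had 0.865 (0.730 to 1.02), 0.976 (0.616 to 1.63) and 1.04 (0.744 to 1.49). H2-T23 had 0.747 (0.552 to 1.004), 0.939 (0.474 to 2.12) and 0.833 (0.508 to 1.45). Psmb9 had 0.705 (0.547 to 0.904), 0.944 (0.494 to 2.03) and 0.859 (0.539 to 1.44).

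**Figure D4:**
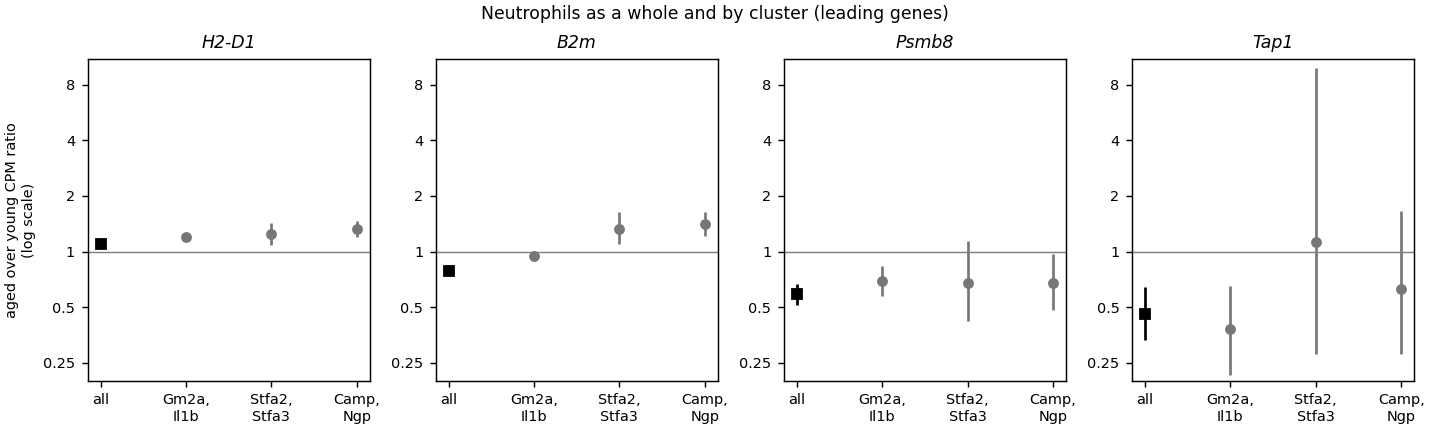
Ratio of the aged to the young library (log scale) of 4 genes in all neutrophils (square) and in each of 3 clusters named by leading genes (circles), with exact conditional binomial intervals. H2-D1 lies above 1 and Psmb8 below 1 in every column, while B2m is 0.785 in all neutrophils and 1.33 and 1.41 in the stefin A and Camp clusters.

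In monocytes the 10 genes differed little with age, and none was 1.5-fold higher or lower, where 5.88% of 7778 genes were higher and 8.68% lower. H2-D1 had a ratio of aged to young of 1.18 (1.13 to 1.22), B2m 1.10 (1.07 to 1.14), Psmb9 1.18 (1.04 to 1.34), Psmb10 1.14 (1.03 to 1.25) and Psmb8 1.11 (1.04 to 1.18). Tap1 had 0.768 (0.631 to 0.935), H2-K1 0.897 (0.838 to 0.961) and H2-T23 0.833 (0.696 to 0.999). The constitutive subunits were further apart than their inducible counterparts: Psmb5 had a ratio of 1.45, Psmb6 1.33 and Psmb7 1.49. The Psmb8 to Psmb5 ratio was accordingly 0.766 times as high in aged as in young monocytes (0.692 to 0.847) and the Psmb10 to Psmb7 ratio 0.764 times (0.662 to 0.882). The Psmb9 to Psmb6 ratio was 0.890 times as high, with an interval that includes 1 (0.766 to 1.03). All 3 inducible subunits together took 45.3% (44.3 to 46.2) of the UMIs of the 6 catalytic genes in aged monocytes and 50.9% (49.4 to 52.3) in young ones, and 54.2% (51.9 to 56.4) in aged and 60.9% (57.8 to 63.9) in young neutrophils.

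The monocytes of the 2 ages lay largely in different clusters. One led by Ecm1, Tppp3 and C1qb held 371 aged and 7 young cells, and one led by the haemoglobin genes Hba-a1 and Hbb-bs held 5 aged and 394 young cells. The erythroid markers summed to 475 CPM in aged and 728 CPM in young monocytes. A cluster led by Cd74, H2-Aa and H2-Ab1 held 106 and 83. It has 4 dendritic cell markers among its 10 leading genes, and also Cx3cr1, a listed marker of monocytes and of nonclassical monocytes. It is left without a cell type name. The cluster led by the cell cycle genes Ccnb2 and Birc5 held 422 and 22 cells. What part these clusters have in the monocyte ratios was not tested beyond the values that follow.

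A nonclassical monocyte-like cluster of 28 aged and 34 young cells, led by Cd300e, Ccr7, Ace, Eno3 and Cd36 and with a median of 2477.5 UMIs a cell, had the highest class I levels of the 3 monocyte clusters with at least 20 cells of each age. Its name rests on Ace, Eno3 and Cd36 among the 8 listed nonclassical monocyte markers, while Cx3cr1, another of them, was a leading gene of the Cd74 cluster. In the nonclassical monocyte-like cells B2m stood at 5688 CPM (5141 to 6277) in aged and 4003 CPM (3689 to 4337) in young cells, H2-D1 at 3096 and 2889 CPM, and H2-K1 at 1310 and 1148 CPM. In the Cd74 cluster the same genes had 2711 and 2371 CPM, 1783 and 1637 CPM, and 569 and 637 CPM, and the Ccnb2 cluster was lowest, with H2-K1 at 246 and 225 CPM. Psmb8 had 533 and 554 CPM in the nonclassical monocyte-like cells, 504 and 424 CPM in the Cd74 cluster, and 430.1 and 449 CPM in the Ccnb2 cluster. B2m had an aged to young ratio of 1.42 (1.25 to 1.62) in the nonclassical monocyte-like cells and 1.14 (1.07 to 1.22) in the Cd74 cluster, and Psmb8 one of 0.962 (0.635 to 1.43) and 1.19 (1.02 to 1.39).

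**Figure D5:**
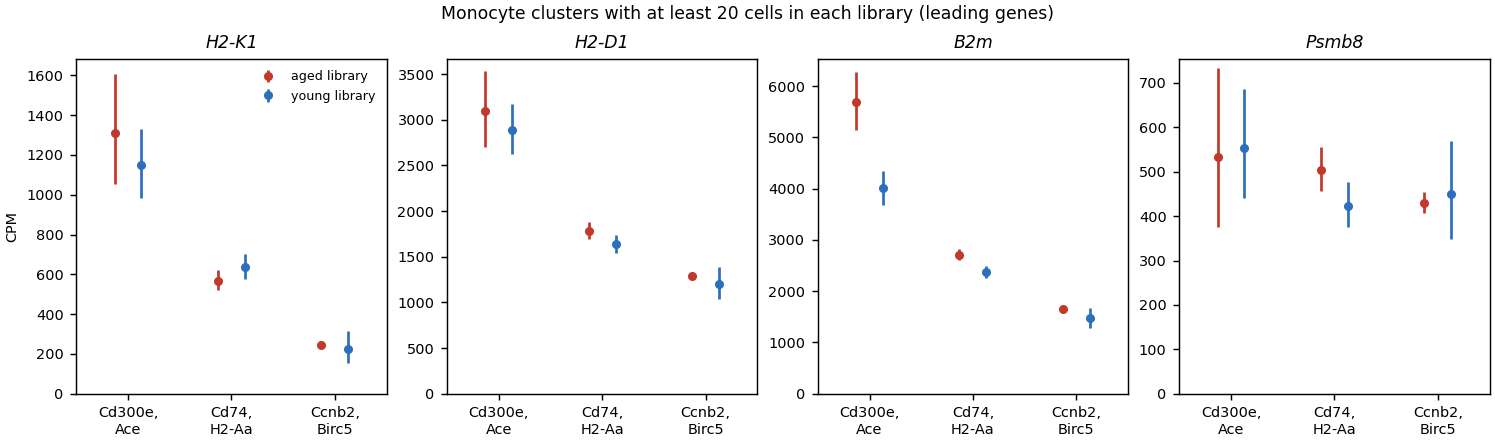
Level in CPM of 4 genes in the 3 monocyte clusters with at least 20 cells of each age, named by leading genes, in the aged (red) and young (blue) library with exact Poisson intervals. H2-K1, H2-D1 and B2m descend from the nonclassical monocyte-like cluster (Cd300e, Ace) to the cycling one (Ccnb2, Birc5). Psmb8 descends likewise in the aged library (533, 504 and 430.1 CPM), but the interval of the first value (375 to 734) includes the others. In the young library Psmb8 is 424 CPM in the Cd74 and 449 CPM in the cycling cluster, with overlapping intervals.

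In cDC, 9 genes were measured and none was 1.5-fold apart, where 9.31% of 2504 genes were higher and 5.95% lower with age. Psmb8 had a ratio of 1.31 (1.12 to 1.54) and B2m one of 1.15 (1.06 to 1.26), and the other 7 had intervals that include 1. In NK cells, 6 genes were measured and none was 1.5-fold apart, against 5.73% of 698 genes higher and 11% lower. B2m had a ratio of 1.37 (1.20 to 1.57) there and Psmb8 1.43 (1.05 to 1.96).

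Other genes of the pathway were counted from lists, among genes with at least 20 UMIs over both libraries. For 6522 such genes in neutrophils, 5.78% had a ratio of 1.5 or more and 24.8% were lower by that fold, and of 9325 in monocytes, 7.44% higher and 11.2% lower. Among 18 regulators of class I transcription measured in neutrophils, 4 were lower and none higher: Nlrc5, the class I transactivator, with 3.65 CPM in aged and 6.91 CPM in young neutrophils, Irf1 with 60.8 and 93.3 CPM, Irf8 with 4.74 and 10.4 CPM, and Rfxap with 7.66 and 12.3 CPM. Irf1, an interferon-induced activator of many of these promoters, had a ratio of 0.651 (0.543 to 0.783), and Nlrc5, from 20 and 14 UMIs, one of 0.528 (0.254 to 1.13). In monocytes 0 of 19 regulators were 1.5-fold apart, and Irf1 had 29.7 CPM in aged and 27.3 CPM in young cells.

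Of 8 other loading and trimming genes measured in neutrophils, 3 were lower (Tapbpl, the chaperone Canx and the oxidoreductase Pdia3) and none higher, while in monocytes 0 of 9 were. Calr, the chaperone calreticulin, had a ratio of 0.948 in neutrophils and 1.13 in monocytes. Of 11 core subunits common to both forms of proteasome, Psma6 was higher in aged neutrophils (81.9 CPM in aged and 52.8 CPM in young cells), and Psma6 and Psmb2 were higher in aged monocytes. The list's median log2 ratio was −0.21 in neutrophils and 0.36 in monocytes, where the medians of all genes were −0.26 and −0.00082. Of the 4 proteasome activators, Psme4 was lower in aged neutrophils, and Psme1 and Psme2, which form the interferon-induced cap, had ratios of 0.898 and 0.714 in neutrophils and 1.14 and 1.22 in monocytes.

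Of 7 genes measured in neutrophils from a list of receptors of class I molecules and related receptors, 1 was lower in the aged library. Of 7 in monocytes none was 1.5-fold apart. Cd244 is on the list but is not itself a receptor of class I molecules. Pirb, an inhibitory receptor, had 480 CPM in aged and 497 CPM in young neutrophils and Lilrb4a 442 and 438 CPM, while Pira2, the lower one, had 82.3 and 126 CPM. In monocytes Lilr4b had a ratio of 1.30 (1.10 to 1.53) and Pira2 0.816 (0.720 to 0.924). In cDC, Lilrb4a had a ratio of 1.56 (0.989 to 2.55), Lilr4b 1.54 (0.578 to 4.76), Klra2 1.63 (0.562 to 5.72) and Klrd1 1.94 (1.38 to 2.79), all past 1.5-fold. Lilr4b rests there on 17 aged and 6 young UMIs and Klra2 on 15 and 5. Pirb (0.849), Pira2 (1.06) and Cd244 (1.28), also measured in cDC, were inside that fold. Cd244 was named after its value was seen. Of genes with at least 50 UMIs in cDC, 9.31% were higher by that fold, and the share from 20 UMIs is not given. Pira and Pirb genes are alike in sequence, so reads that they share make these counts uncertain. In neutrophils 2 of 4 other class I heavy chains, H2-Q4 and H2-T24, were lower, from 18 and 13 aged UMIs.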

How the data were processed

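The table deposited by the authors holds raw UMI counts per gene and cell, with the authors' label for library and population of each cell; per the submitters' processing notes, reads were processed with Cell Ranger 2.1.1 and the mm10 build, and per the labels' protocols the libraries were made with a 3′ kit. No source used here gives the cell filters applied before deposit or the strand setting. Doublet scores (scrublet in scanpy 1.11.5) were computed per library and the top 3.14% of aged and 1.46% of young cells removed, at 8 per 1000 cells for each 1000 cells, because the automatic threshold called 0 aged and 4 young cells. Counts were summed per population and library and scaled to the total (CPM). Levels have exact Poisson, shares Clopper-Pearson and ratios exact conditional binomial intervals, all for counting error only; UMIs are counted per molecule. A member was measured with at least 50 UMIs over the groups compared, and called at 1.5-fold; other lists used 20 UMIs. Shares of cells with a UMI are unthinned unless stated. Clusters used 2000 variable genes without the pathway's genes, 30 components, 15 neighbours and Leiden resolution 0.5. Gene positions came from GENCODE M21, and all 10 genes matched a RefSeq promoter; the H2-D1 stretch is short because an annotated first exon overlaps it. Named genes were the members, up to 4 abundant genes per list and the 5 most alike per profile (log2 of CPM plus 10, at least 200 UMIs); listed genes past 1.5-fold and cluster leaders were named after their values were seen. Members and lists were chosen with earlier results of these data known. The interval and call were tested on simulated data. Of the alternatives, 10 were planned and 3 added after the data were seen, beside the scaling without erythroid markers given for 1 population. Software was Python 3.11.15, numpy 2.4.6, scipy 1.17.1 and pandas 2.3.3.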

Additional observations from a re-analysis of the deposited data

Results flagged for a closer look

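The genes B2m, Psmb8 and Psmb9 had intervals on opposite sides of 1 in the 2 main populations. B2m had an aged to young ratio of 0.785 in neutrophils and 1.10 in monocytes, and the log2 difference was −0.49 (−0.57 to −0.41). Psmb8 had 0.587 and 1.11, a difference of −0.92 (−1.13 to −0.71). Psmb9 had 0.668 and 1.18, a difference of −0.83 (−1.13 to −0.52). The difference was not tested in any of the 3, since each age has 1 library and these intervals cover counting error only. Within clusters, B2m was above 1 in 2 of the 3 neutrophil clusters, Psmb8 was below 1 in 2 of the 3 monocyte clusters compared (0.957 and 0.962, both with intervals that include 1; 1.19 in the third) and Psmb9 was 1.02, 0.867 and 0.639 there, each with an interval that includes 1. With those 3 clusters weighted alike, the log2 ratio of Psmb9 in monocytes was −0.28 in place of 0.24.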

How the results depend on the processing

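No paired analysis was possible because each age has 1 library, and for the same reason no library could be left out. In neutrophils, Psmb8, Psmb9, H2-K1 and H2-T23 kept a ratio of aged to young below 1 and H2-D1 one above 1 in all 13 alternatives, and Tap1 stayed below 1 in the 10 that measured it. Within single neutrophil clusters, though, H2-K1 was 1.04 in the Camp cluster, and the intervals of H2-K1 and H2-T23 included 1 in each. That of Psmb9 excluded 1 in the Gm2a cluster alone. Psmb8 ranged over 0.50 to 0.728 and Tap1 over 0.436 to 0.646. B2m changed side in 1 of 13, with the clusters weighted alike (1.21), an alternative added after the data were seen. Psmb10 changed side in 4 of 11 and ranged over 0.319 to 1.19, the lowest value in cells with no UMI of another cell type (1039 aged and 144 young neutrophils), and Tapbp in 1 of 13. The neutrophil median log2 ratio was −0.35, and −0.042 with TMM scaling. The count of members 1.5-fold lower was 2, and 1 with TMM scaling, with totals without S100a8, S100a9 and Retnlg, and from 200 UMIs; it was 3 with totals without ribosomal and mitochondrial genes, in thinned cells, with no removal of doublets, as the mean CPM of single cells, and in both added alternatives that leave out cells. In monocytes the count higher was 0, and 1 in cells with no UMI of another cell type, where 108 aged and 8 young monocytes were left. Psmb9 in monocytes, at 1.18, changed side in 2 of 13 (range 0.715 to 1.47), H2-K1 in 2 of 13 (0.857 to 1.87), Tapbp in 2 of 12, H2-Q7 in 2 of 10, and Psmb10 and H2-T23 in 1 each. The monocyte to neutrophil median in the aged library was 0.98, reversed to −0.34 with TMM scaling, 0.26 without the 3 abundant genes and 1.36 without ribosomal and mitochondrial genes. In the young library it was 0.38, then −0.61, −0.16 and 0.79, and 0.00059 in cells with no UMI of another cell type, where 3 members were measured; the cause was not tested. H2-Q7 in neutrophils and cDC, and Tap1, Tapbp, H2-T23 and Psmb9 in NK cells, had under 50 UMIs over both libraries and were not compared between the ages.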

Other observations

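H2-Q10, a heavy chain gene known in mouse for a soluble class I molecule of the liver, was counted in neutrophils at 447 CPM (2448 UMIs) in the aged and 557 CPM (1129 UMIs) in the young library. Monocytes had 46.0 CPM in the aged and 39.5 CPM in the young library, and NK cells 28.7 CPM (4 UMIs) and 0. Its aged to young ratio in neutrophils was 0.802 (0.747 to 0.861). H2-Q10 resembles its neighbours in the Q region, so reads that they share make this count uncertain.

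Among the receptors of class I molecules on NK cells, Klra7, a receptor of the Ly49 family, had 201 CPM in the aged and 548 CPM in the young library (ratio 0.366, 0.230 to 0.569), and Klrc1, which encodes NKG2A, the partner of CD94 in binding Qa-1, had 172 and 354 CPM (0.486, 0.287 to 0.801). Klra8 had 1025 and 1116 CPM (0.919, 0.730 to 1.16) and Klrd1, which encodes CD94, 1147 and 1176 CPM (0.976, 0.783 to 1.22). Some Klra genes lay above 1: Klra3 had 301 and 180.4 CPM (1.67, 1.01 to 2.82), Klra1 a ratio of 1.41 (0.700 to 2.89) and Klra4 one of 1.26 (0.993 to 1.61). Klra9 lay below 1, at 0.770 (0.553 to 1.07), as did Klrc2 at 0.676 (0.457 to 0.991). Cd244, on the same list but not a receptor of class I molecules, had a ratio of 0.473 (0.240 to 0.893). Of 698 genes with at least 50 UMIs in NK cells, 5.73% were at least 1.5-fold higher and 11% lower. These rest on 58 aged and 70 young NK cells of 1 library each, and Klra genes are alike in sequence. These genes were chosen after their values were seen.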
